A study of Mus musculus with 8 samples.

Results

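The comparison described here sets mouse embryos with 1 functional Prtg allele (Prtg+/-, Het) against their wild-type counterparts (WT), across all genes. It contrasts 5 of the 8 libraries of the study, 3 Het and 2 WT, taken by the genotype in the column names of the deposited count table. All 8 libraries were fitted together. RNA came from the posterior trunk of C57BL/6 embryos at embryonic day 9.5, the tissue behind a division between somites 12 and 13, and poly(A) RNA was sequenced. Both parents carried a single Prtg knockout allele, so WT, Het and homozygous knockout embryos (Prtg-/-, KO, 3 libraries) arose in the same matings. The labels name a knockout allele and no tissue-specific driver. The sources used here do not say which stretch of the gene is deleted or which litter an embryo came from. Every p-value therefore rests on the spread between these libraries alone, which may be partly technical.

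Prtg encodes protogenin, a cell-surface receptor of the Dcc and neogenin family with immunoglobulin and fibronectin domains, which is made in the caudal neural plate and mesoderm while the trunk elongates. The body axis is laid down from head to tail by a pool of progenitors at the posterior end, and cells take their regional identity from Hox genes, of which paralogue groups 10 to 13 mark the lumbosacral and tail levels. The switch from trunk to tail formation depends on GDF11, a ligand of the TGF-beta family that acts through activin receptors and SMAD2 and SMAD3. Follistatin, the product of Fst, binds and blocks GDF11 and activins outside the cell. The study's title places protogenin in this pathway, and the comparison of Het with WT addresses what a single lost allele does on its own.

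Total gene counts of the 5 libraries ran from 16874860 to 17388419, and 16262 of the 55573 genes in the table were tested. Libraries are named by their genotype and the number pair of their column, as in Het 2-4, and the first of these numbers is called the column set. What it marks is not stated in the labels. WT 1-2 and Het 1-1 belong to column set 1, and WT 2-1, Het 2-4 and Het 2-5 to column set 2. Xist, the RNA of the inactive X chromosome, was at 850 CPM in WT 1-2, 815 in Het 1-1 and 803 in Het 2-4, against 1.52 in WT 2-1 and 3.57 in Het 2-5, so both genotypes held libraries of either kind. CPM is the count scaled to a common library total after TMM scaling. KO 1-3 stood apart from every other library (root mean square log2 distance 0.327 to 0.368, with the hypoxia and glycolysis genes summing to 14100 CPM against 7092 to 8233 CPM elsewhere). It enters Het minus WT through the shared estimate of spread, the filter on low counts and the scaling, and counts are given with and without it. The labelled tissue was checked by Cdx2, a caudal transcription factor, which was at 113 to 172 CPM in the 5 libraries. Markers of the head and heart were scarce, since Otx2 of the forebrain did not pass the filter on low counts. Heart genes summed to 12.3 to 16.6 CPM, and the tested head and midbrain genes to 13.96 to 17.1 CPM in the 5 libraries. Other cells that a dissection could hold gave more reads. Genes of yolk sac endoderm summed to 44.5 to 73.4 CPM and those of primitive erythroid cells to 2948 to 6081 CPM.

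Across all genes, no gene differed between Het and WT embryos at an adjusted p below 0.05 in the quasi-likelihood test of edgeR, adjusted by Benjamini-Hochberg (0 of 16262, 0%). An unadjusted p below 0.05 was reached by 292 genes (1.80%), 148 higher in Het (0.910%) and 144 lower (0.885%). The smallest adjusted p in edgeR was 0.429, for Mat2a, and those of the other genes were 0.9999 or higher. DESeq2 called 2 of the 16246 genes to which it gave an adjusted p (0.0123%), Mat2a, which was higher in Het (adjusted p = 0.00189), and Prtg itself, which was lower (adjusted p = 0.0419). The 3 Het and 2 WT values did not overlap in 2945 genes (18.1%), which is the background for each statement on overlap of Het with WT. No such share is given for patterns that include KO. limma voom called 0 genes, with 295 at an unadjusted p below 0.05. Without KO 1-3, edgeR called 1 gene, Mat2a (adjusted p = 0.0395), and 549 genes had an unadjusted p below 0.05. With only the 5 Het and WT libraries fitted, edgeR called 0 of 15816 genes, and 569 had an unadjusted p below 0.05. The number of genes at that level thus depended on which KO libraries shared the fit. In the edgeR test on all 8 libraries, KO minus WT gave 6 called genes (0.0369%) and KO minus Het gave 31 (0.191%).

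Because an uncalled gene need not be an unchanged gene, a 95% interval was computed for the log2 difference of each gene. The interval lay inside 1.5-fold in either direction for 10270 genes (63.2%), inside 2-fold for 12831 genes (78.9%) and inside 4-fold for 15663 genes (96.3%). These intervals are per gene and are not adjusted over genes. One-sided tests against the same bounds, adjusted over all genes by Benjamini-Hochberg, placed 10545 genes (64.8%) within 1.5-fold, 13356 (82.1%) within 2-fold and 15899 (97.8%) within 4-fold. Their threshold was an adjusted p below 0.05. A one-sided level of 0.05 is looser for a single gene than a 95% interval, so these counts are not a stricter check.

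How tight the bound was depended on the level of the gene. For the 2541 genes at 100 CPM or more, the median margin of the interval, from the estimate to either end, was 0.16 on the log2 scale, or 1.12-fold, and 99.5% had their interval inside 2-fold. For the 5385 genes at 20 to 100 CPM it was 1.16-fold, with 99.6% inside 2-fold and 97.5% inside 1.5-fold. The 3156 genes at 5 to 20 CPM had a median margin of 1.29-fold, and 97.2% lay inside 2-fold. Below that the bound loosened: 59.5% of the 3073 genes at 1 to 5 CPM and 2.09% of the 2107 genes under 1 CPM had their interval inside 2-fold. For the scarcest genes, 74.8% could still be held within 4-fold.

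Of the 11082 genes at 5 CPM or more, 10959 had an interval inside 2-fold and 123 had one that reached beyond it. Their estimates were narrowly spread, with a median of 0.003, an SD of 0.14 and 5th and 95th percentiles of -0.17 and 0.17 on the log2 scale. Only 25 of them had an estimate beyond 1.5-fold and 6 beyond 2-fold. Among all tested genes, 1 had an interval wholly beyond 2-fold, and it was Mat2a. Zfp990 alone had both WT libraries at 0 and so no finite estimate or interval.

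**Figure D1:**
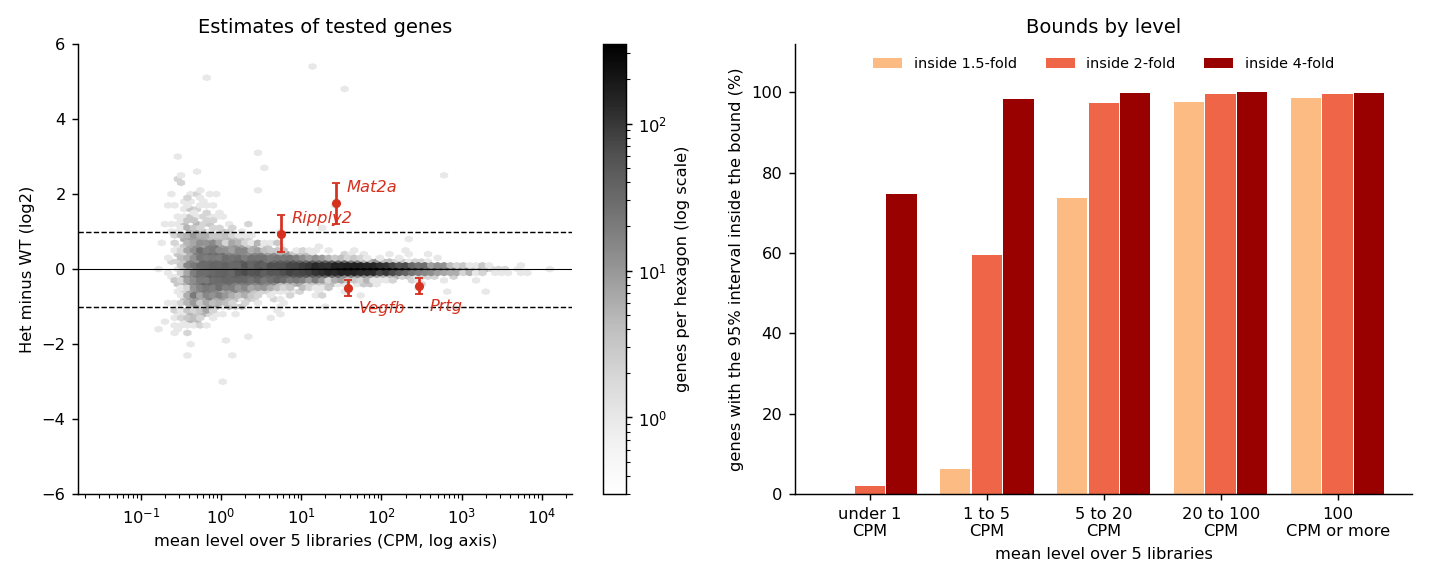
Left, the Het minus WT log2 difference of tested genes against their mean CPM over the 5 libraries (log axis), with grey hexagons for the number of genes, dashed lines at 2-fold and red points with 95% intervals for 4 named genes. Right, the share of genes in each level class whose 95% interval lies inside 1.5-fold, 2-fold or 4-fold, which for 2-fold runs from 2.09% under 1 CPM to 99.5% at 100 CPM or more.

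Prtg (chromosome 9, 72806874 to 72917291, GRCm38) was measured at 317 CPM in WT 1-2 and 386 CPM in WT 2-1. The Het libraries held 250, 240 and 282 CPM, and the KO libraries 268, 254 and 237 CPM. Each Het library lay below each WT library, while Het and KO overlapped. The Het to WT ratio was 0.733, a log2 difference of -0.45 ± 0.097 (SE) with an interval of -0.66 to -0.23, so a 2-fold drop of the whole-gene count lay outside the interval. In edgeR the unadjusted p was 7.19e-04 and the adjusted p was 0.9999, while DESeq2 called the difference. Within column set 1 the difference was -0.34 and within set 2 it was -0.57. Because the deleted stretch is not known, whole-gene counts of a transcript that may still be made are a weak check of the genotype.

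The closest relatives of Prtg and the ligands and partners of that receptor family gave no called difference. All 16 genes of this list were tested, 0 had an unadjusted p below 0.05, and the median was -0.04 against 0.001 over all tested genes. Neo1, which encodes neogenin, a receptor for netrins and repulsive guidance molecules, was at 191 and 164 CPM in WT and 195, 174 and 169 CPM in Het, with overlapping groups and a difference of 0.02 (-0.18 to 0.21). The smallest p belonged to Rgmb, which encodes a repulsive guidance molecule that binds neogenin, at -0.18 (-0.44 to 0.08). Intervals lay inside 2-fold for 13 of the 16.

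The genes around the locus were examined because a knockout allele carries its own stretch of chromosome. The 61 tested genes within 5 Mb of Prtg had a median of -0.02, 4 had an unadjusted p below 0.05 (Gm27204, Mns1, Adam10 and Foxb1, named after their values were seen), and 47 had intervals inside 2-fold. These are 6.56% and 77.0% of the 61, beside 1.80% and 78.9% of all tested genes. The tested neighbour on the upstream side, Gm27204, a gene of unnamed function 31 kb away, had 0 and 4 reads in WT, 12, 15 and 10 in Het, and 22, 26 and 21 in KO. Its levels were 0 and 0.23 CPM in WT, 0.71, 0.88 and 0.58 in Het and 1.30, 1.52 and 1.21 in KO. Het and WT did not overlap, as in 18.1% of all tested genes. How many genes separate all 3 genotypes was not counted. The Het minus WT difference was 2.63 (0.74 to 4.52, unadjusted p = 0.00505 in edgeR, adjusted p = 0.9999), and without WT 1-2, the library at 0, it was 1.63.

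On the downstream side, 8 kb away, lies Pygo1, which encodes a co-activator of beta-catenin. It was at 17.9 CPM in each WT library, at 22.1, 22.6 and 19.04 CPM in Het and at 24.98, 26.3 and 23.5 CPM in KO. Het and WT did not overlap here either, and the Het minus WT difference was 0.25 (-0.003 to 0.50, unadjusted p = 0.053 in edgeR). Nedd4, a ubiquitin ligase gene 57 kb upstream, was even across the libraries, with a difference of -0.03 (-0.15 to 0.09).

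No Hox gene of the tail groups differed between Het and WT by the test, and most were bounded within 2-fold. Of 12 Hox genes of groups 10 to 13, 10 were tested (Hoxc12 and Hoxb13 were too low), 0 had an unadjusted p below 0.05 for Het minus WT, and 5 lay above and 5 below 0. Their median difference was 0.01, with single genes between -0.11 and 0.15, beside a median of 0.001 over all tested genes. For KO minus WT, against the same 2 WT libraries, the median of these genes was -1.46. Intervals for Het minus WT lay inside 2-fold for 8 of the 10 and inside 4-fold for all 10, and the exceptions to the 2-fold bound were Hoxd12 and Hoxc13, which were read at few counts.

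Hoxa11, which patterns the limb, kidney and lumbosacral axis, was at 25.98 and 16.2 CPM in WT, 26.4, 23.0 and 19.9 CPM in Het, and 4.01, 5.27 and 6.03 CPM in KO. The Het values lay within the span of WT or just above it, and every KO value lay below all of them. The Het minus WT difference was 0.13 (-0.33 to 0.59). Hoxc11, its paralogue in the Hoxc cluster, was at 14.3 and 8.66 CPM in WT, 13.8, 11.02 and 8.34 CPM in Het, and 0.94, 1.81 and 2.30 CPM in KO, and Het minus WT was -0.05 (-0.70 to 0.59). Hoxd11, the paralogue in the Hoxd cluster, was at 53.7 and 25.6 CPM in WT, 49.9, 37.4 and 30.4 CPM in Het, and 3.06, 7.61 and 9.70 CPM in KO, and Het minus WT was -0.02 (-0.82 to 0.78). In all 3 genes the Het and WT groups overlapped.

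The WT libraries themselves differed in these genes. WT 1-2 was the higher of the WT libraries for 9 of the 10 tested tail Hox genes, Hoxc13 being the exception. Without WT 1-2 the median of the list was 0.33, and without WT 2-1 it was -0.18, so the WT library that is kept decides the sign. Within column set 1, Het minus WT was 0.02 for Hoxa11, -0.04 for Hoxc11 and -0.11 for Hoxd11. Within set 2 it was 0.38, 0.13 and 0.38.

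Hoxa10, which acts in the lumbar axis, gave similar values in all 5 libraries, with 65.8 and 63.0 CPM in WT and 67.4, 65.3 and 66.3 CPM in Het, a difference of 0.04 (-0.28 to 0.37). Hoxd13, a gene of the most caudal group, was at 26.4 and 15.7 CPM in WT and 30.7, 22.6 and 16.7 CPM in Het, a difference of 0.15 (-0.46 to 0.75). The Hox genes of more anterior groups gave tighter bounds. All 12 of groups 1 to 4 were inside 2-fold with a median of -0.09, and all 15 of groups 5 to 9 were inside 1.5-fold with a median of -0.08. Among them Hoxd3, a gene of cervical patterning, had the smallest p, at 24.5 and 24.03 CPM in WT and 19.97, 19.7 and 20.02 CPM in Het, without overlap (-0.29, -0.51 to -0.07, unadjusted p = 0.015 in edgeR).

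The genes that had been found lower in KO embryos in an earlier analysis of these libraries were Fst, Pmepa1, Spock2, Spaca6, Hoxa11 and Hoxc11. They were chosen on these samples, so their KO values are a description. The median of these 6 was -1.97 for KO minus WT and -0.13 for Het minus WT, and all 6 Het intervals lay inside 2-fold. Fst was at 22.5 and 20.1 CPM in WT, 21.4, 20.1 and 20.3 CPM in Het, and 5.24, 6.50 and 5.45 CPM in KO. Het overlapped WT, with a difference of -0.05 (-0.33 to 0.23), and every KO library was far below.

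A direct test asked whether Het lay away from the midpoint of WT and KO on the log2 scale, where an evenly graded response would fall. It called 1 gene (0.00615%), Fst, which lay 0.90 above the midpoint (0.67 to 1.13, adjusted p = 0.0487 in edgeR), toward WT. This call was close to the threshold: the adjusted p was 0.0707 with the column set as a term, 0.0735 with the Y-linked level as a covariate, and between 0.0120 and 0.572 when each library was left out in turn, with the call kept only without KO 1-3. The value itself stayed between 0.86 and 0.95 in those fits. DESeq2 gave Fst an adjusted p of 6.755e-08, and edgeR with no filter on low counts 1.284e-05. Hoxa11 lay 1.15 above its midpoint and was not called by edgeR on all 8 libraries with the default filter (unadjusted p = 3.37e-05, adjusted p = 0.261 in edgeR). It was called by DESeq2 (adjusted p = 1.05e-07), by edgeR with no filter (7.965e-07) and by edgeR without KO 1-3 (0.0419).

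Pmepa1 and Spaca6, in contrast to Fst, did not overlap between Het and WT. Pmepa1, which is induced by TGF-beta and dampens its signal, was at 4.73 and 4.15 CPM in WT, 3.21, 3.52 and 2.99 CPM in Het, and 0.71, 0.88 and 0.98 CPM in KO. Its Het minus WT difference was -0.46 (-0.94 to 0.03, unadjusted p = 0.062 in edgeR). Spaca6, which encodes a sperm membrane protein needed for fertilisation, was at 25.9 and 27.9 CPM in WT, 16.2, 22.4 and 18.8 CPM in Het, and 6.01, 9.01 and 9.36 CPM in KO. Its Het minus WT difference was -0.49 (-0.90 to -0.09, unadjusted p = 0.021, adjusted p = 0.9999 in edgeR), again without overlap. Against the midpoint of WT and KO, Het lay 0.73 above for Pmepa1 (0.31 to 1.15) and 0.37 above for Spaca6 (0.04 to 0.70), the same direction as Fst, with neither called (adjusted p = 0.941 for both in edgeR). Whether these genes differ from Fst in that placement was not tested. Spock2, which encodes an extracellular proteoglycan, had 43.4 and 36.0 CPM in WT and 36.5, 34.4 and 32.6 CPM in Het, with a difference of -0.20 (-0.44 to 0.03) and overlapping groups.

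The 7 genes found higher in KO, among them the trunk-stage nuclear receptor gene Nr6a1 and the trunk Hox gene Hoxb9, gave narrow intervals. Their median was 0.63 for KO minus WT and -0.09 for Het minus WT, and all 7 Het intervals lay inside 1.5-fold. The Het estimate was below 0 for 6 of the 7, the direction opposite to KO. Msx1 and Irx3 did not overlap between Het and WT, as in 18.1% of all tested genes. Their differences were -0.18 (-0.40 to 0.03) and -0.09 (-0.23 to 0.05). Nr6a1 was at 130 and 166 CPM in WT, 134, 140 and 156 CPM in Het, and 250, 242 and 214 CPM in KO. The Het values lay between the WT values, and the difference was -0.05 (-0.29 to 0.20). Hoxb9 was at 249 and 284 CPM in WT and 254, 268 and 269 CPM in Het, a difference of -0.01 (-0.20 to 0.17).

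**Figure D2:**
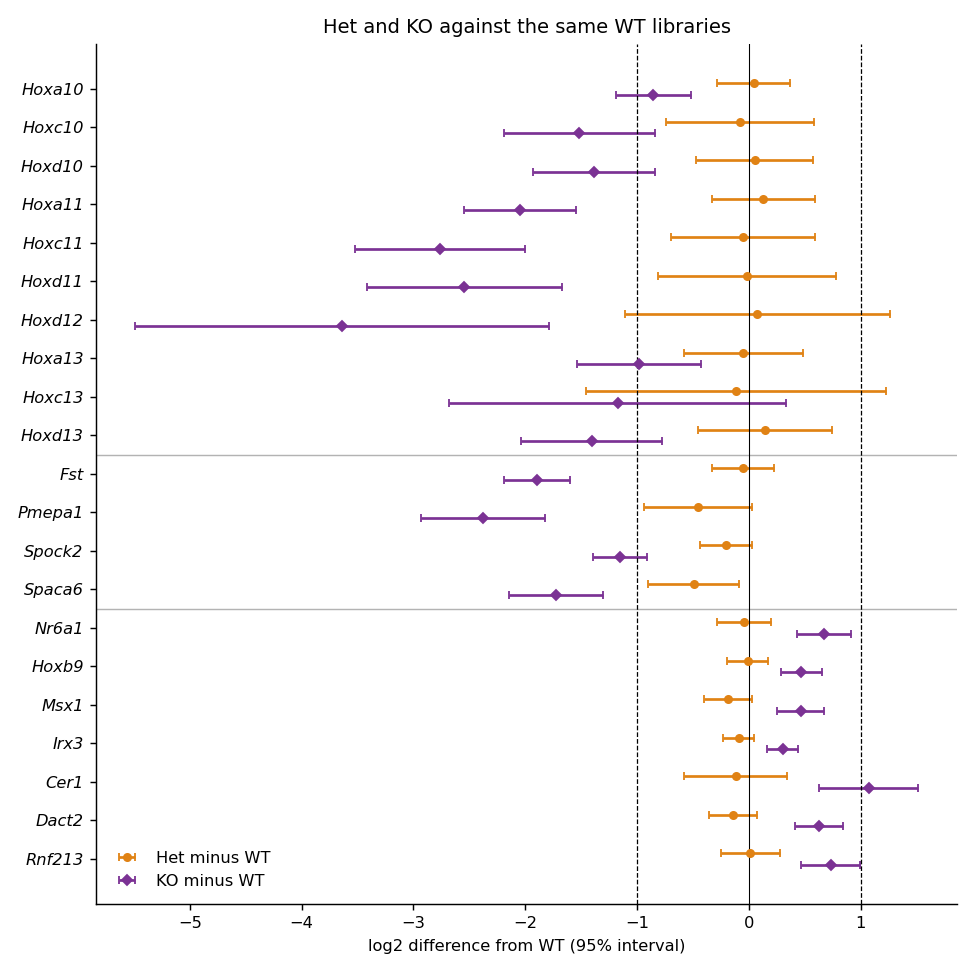
Log2 differences from WT with 95% intervals for Het (orange circles) and KO (purple diamonds), both against the same 2 WT libraries, for tail Hox genes (top), other genes lower in KO (middle) and genes higher in KO (bottom), with dashed lines at 2-fold. The Het values of the Hox genes lie between -0.11 and 0.15, and those of Pmepa1 and Spaca6 are -0.46 and -0.49.

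Most components of GDF11 signalling were measured in Het at levels close to WT. Of the ligand, protease, receptor and SMAD genes, 19 of 22 were tested, 0 had an unadjusted p below 0.05, and the median was 0.008. Intervals lay inside 2-fold for 17 of the 19. The exceptions were Inhbb (-1.62 to 1.92) and Nodal (-0.96 to 1.49), which were read at few counts. Gdf11 itself was at 83.7 and 83.0 CPM in WT and 77.8, 89.0 and 88.8 CPM in Het, overlapping, with a difference of 0.03 (-0.26 to 0.32). Smad2, the intracellular transducer, had 88.1 and 84.4 CPM in WT and 84.4, 88.1 and 83.5 CPM in Het, a difference of -0.02 (-0.16 to 0.13). The receptor genes Acvr2b and Tgfbr1 had intervals of -0.21 to 0.08 and -0.11 to 0.22. Among 16 feedback and target genes of SMAD2 and SMAD3, 0 passed an unadjusted p below 0.05, the median was -0.06 and 14 were inside 2-fold. All 9 tested antagonists had estimates below 0, with a median of -0.05, 0 of them at an unadjusted p below 0.05 and 7 inside 2-fold.

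Genes with the smallest p were then named in each direction, among those with a mean of at least 5 CPM. Mat2a (chromosome 6, 72432799 to 72439558), which encodes the enzyme that makes S-adenosylmethionine, the methyl donor of the cell, stood out among the higher genes. It was at 14.1 and 8.07 CPM in WT, 31.9, 35.9 and 44.3 CPM in Het, and 26.6, 43.1 and 36.9 CPM in KO. Every Het and KO library lay above both WT libraries, which the comparisons of Het and of KO share. The Het minus WT difference was 1.75 ± 0.25 (1.21 to 2.30, unadjusted p = 2.635e-05 in edgeR), a 3.37-fold higher level, and it was 1.12 within column set 1 and 2.17 within set 2. With each library left out in turn it ran from 1.41 to 2.21. Of the 15 tested genes of the methionine cycle, Mat2a was the 1 with an unadjusted p below 0.05, and the median of the list was 0.02.

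Ripply2, a repressor that sets the boundary of the forming somite, was second. It was at 4.20 and 2.92 CPM in WT, 8.02, 6.50 and 6.04 CPM in Het, and 4.01, 3.45 and 4.48 CPM in KO. The Het libraries were the 3 highest of all 8, and Het minus WT was 0.94 ± 0.22 (0.45 to 1.44, unadjusted p = 0.00154, adjusted p = 0.9999 in edgeR). It was 0.79 within column set 1 and 0.89 within set 2. The other 8 higher genes had differences of 0.22 to 0.47. They were Ramac, a cofactor of mRNA cap methylation, Wars2, a mitochondrial tRNA synthetase, Ndufs4, a subunit of respiratory complex I, the non-coding AC132253.9, and Gm6793, Gm6087, Ppp1ccb and Gm3756. The last of these, Gm6087 and Ppp1ccb are annotated as pseudogenes in GENCODE, whose reads can be shared with a parent gene, so their counts are uncertain.

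Among the lower genes, Vegfb, which encodes a growth factor of the VEGF family, had the smallest p. It was at 46.1 and 47.2 CPM in WT, 35.5, 31.0 and 33.1 CPM in Het, and 52.8, 44.0 and 46.6 CPM in KO. Het was thus the lowest genotype without overlap, and Het minus WT was -0.49 ± 0.096 (-0.70 to -0.28, unadjusted p = 3.28e-04, adjusted p = 0.9999 in edgeR). Gnas, an imprinted gene for the stimulatory G protein alpha subunit, was at 718 and 690 CPM in WT, 605, 578 and 575 CPM in Het, and 691, 687 and 729 CPM in KO, a difference of -0.26 ± 0.062. Rac1, a small GTPase gene of cell shape and migration, was at 348 and 366 CPM in WT and 282, 265 and 283 CPM in Het, a difference of -0.37 ± 0.11. In KO it was at 279 CPM in KO 1-3, within the Het values, and at 357 and 372 CPM in KO 2-2 and KO 2-3. For Vegfb, Gnas and Rac1 the differences within column set 1 were -0.37, -0.25 and -0.30, and within set 2 they were -0.55, -0.26 and -0.42.

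H1fx, a linker histone gene, was at 78.0 and 81.9 CPM in WT and 69.9, 56.7 and 60.4 CPM in Het, without overlap (-0.36 ± 0.090). Prtg was among the 10 lower genes too. The other 5 lay between -0.70 and -0.25. They were Svil, an actin-binding protein gene, Man1c1, a mannosidase of the Golgi, Oplah, an enzyme of glutathione turnover, Gm10031 and the pseudogene Gm12191. Each of these 10 genes had its groups apart, which their choice by p makes likely.

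**Figure D3:**
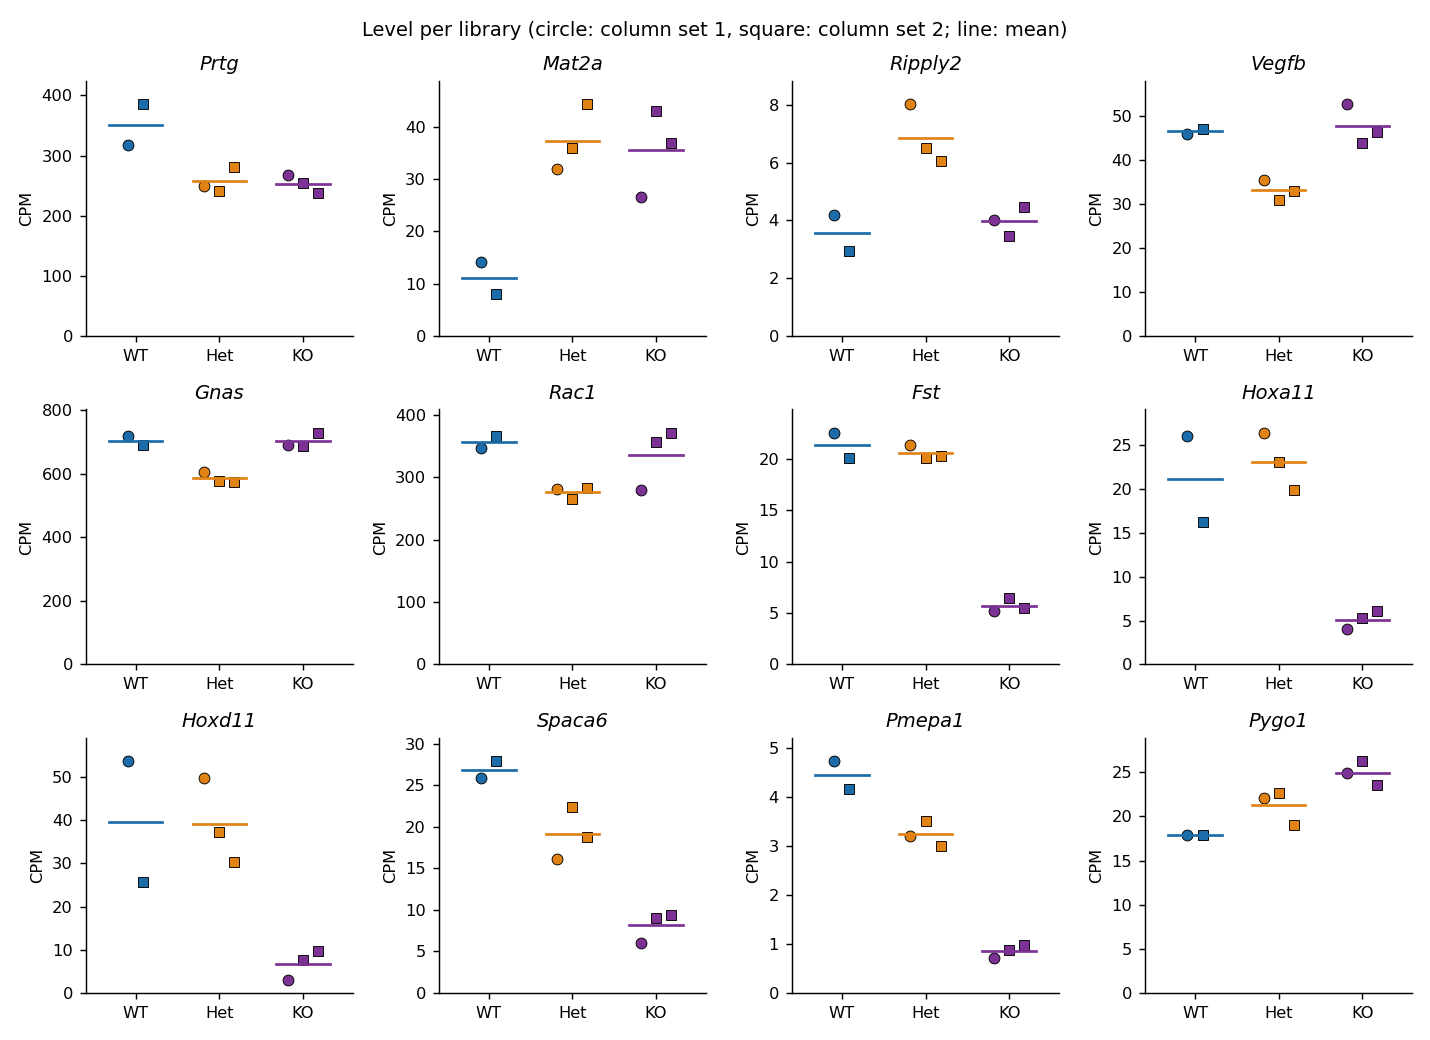
CPM of 12 genes in each of the 8 libraries by genotype (circles for column set 1, squares for column set 2, lines for the mean). Prtg is 240 to 282 CPM in Het against 317 and 386 CPM in WT, Mat2a is 31.9 to 44.3 against 8.07 and 14.1 CPM, and Fst and Hoxa11 overlap between Het and WT.

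The cell types of the posterior trunk were compared by gene lists. Over 40 lists of genes, the median Het minus WT difference ran from -0.49 to 0.10, and 35 lists lay within 0.1 of 0, beside 0.001 for all tested genes. The lowest of these medians was that of 4 Y-linked genes, which were near 0 CPM in WT 1-2, Het 1-1 and Het 2-4. Over the other 39 lists the lowest median was -0.33, for heart. These lists and the 13 genes drawn from KO held 528 tested genes, of which 442 (83.7%) had intervals inside 2-fold and 16 (3.03%) an unadjusted p below 0.05, beside 78.9% and 1.80% of all tested genes. The axial progenitor and tailbud list had 19 of 19 genes inside 2-fold and a median of -0.07. Its 2 genes with an unadjusted p below 0.05 were both lower. Sp5, a target of WNT signalling, was at 25.3 and 20 CPM in WT and 18.1, 17.1 and 15.2 CPM in Het without overlap (-0.43, -0.77 to -0.09, unadjusted p = 0.017 in edgeR). The other was Foxb1, a forkhead transcription factor gene, at -0.21 (-0.43 to -7.625e-05). T, the brachyury gene of the notochord and tailbud, was at 114 and 153 CPM in WT and 114, 133 and 140 CPM in Het (-0.05, -0.31 to 0.21).

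Genes of the presomitic mesoderm and the segmentation clock, which turn on and off in cycles as somites form, spanned -1.13 to 0.94. Their median was 0.02, and 14 of 19 lay inside 2-fold. Besides Ripply2, 3 of the 19 had an unadjusted p below 0.05, all lower, beside 1.80% of all tested genes in either direction. Msgn1, a regulator of presomitic mesoderm, was at 56.6 and 39.8 CPM in WT and 32.6, 31.6 and 29.2 CPM in Het, without overlap, while KO spanned 23.7, 37.7 and 45.0 CPM (-0.63, -1.11 to -0.15, unadjusted p = 0.015 in edgeR). Mesp2, which starts segment polarity and was named after its value was seen, was at 9.58 and 5.15 CPM in WT and 4.28, 2.23 and 3.57 CPM in Het (-1.13, -2.23 to -0.04). Axin2, a feedback inhibitor of WNT signalling, was at -0.25 (-0.49 to -0.007), with overlapping groups. Hes7, a repressor at the core of the clock, was at 15.7 CPM in WT 1-2 and 17.5 in Het 1-1 but at 33.7 in WT 2-1, 34.2 in Het 2-4 and 37.4 in Het 2-5. Lfng, which encodes an enzyme that modifies Notch, was likewise lowest in WT 1-2 and Het 1-1, at 24.1 and 31.0 CPM, and at 50.2 to 65.6 CPM in the other 3.

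Single libraries carried some differences. Fos, an immediate early gene, was at 11.7 CPM in Het 1-1 and between 0.47 and 0.69 CPM in the other 4 libraries, and its difference of 3.11 became 0.36 without Het 1-1. Dkk1, a secreted inhibitor of WNT signalling, was at 37.9 CPM in WT 1-2 against 16.6 in WT 2-1 and 13.0 to 15.4 in Het, and its difference of -0.97 became -0.25 without WT 1-2. Mnx1, a gene of motor neurons and the notochord, was at 16.1 CPM in WT 2-1 and 7.68 to 8.12 CPM in the other 4, and its difference of -0.64 became -0.06 without WT 2-1.

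Genes of neural, endothelial and dividing cells had medians near 0. Of 19 tested neural tube progenitor genes 15 were inside 2-fold, with a median of 0.01. Genes of differentiating neurons were bounded less well, with 7 of 14 inside 2-fold and a median of -0.05. Single genes of that list ran from -0.64 to 0.65. All 19 proliferation genes had intervals inside 1.5-fold with a median of 0.02, all 15 endothelial genes were inside 2-fold with a median of -0.04, and the 15 BMP feedback genes inside 2-fold had a median of 0.06. Blood was less even. All 13 genes of primitive erythroid cells had estimates below 0, with a median of -0.25, 0 of them at an unadjusted p below 0.05 and 9 inside 2-fold. Their summed level was 6081 and 3012 CPM in WT and 4789, 4480 and 2948 CPM in Het, so the groups overlapped and WT 1-2 was the highest. In bulk tissue, fewer cells of a type and less RNA per cell cannot be told apart. The lists for yolk sac endoderm and heart had medians of -0.26 and -0.33 at summed levels of 44.5 to 73.4 and 12.3 to 16.6 CPM, with overlapping groups in yolk sac but not in heart, where WT held 16.6 and 15.7 CPM and Het 13.1, 14.8 and 12.3 CPM. The part of these tissues in the other differences was not tested.

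**Figure D4:**
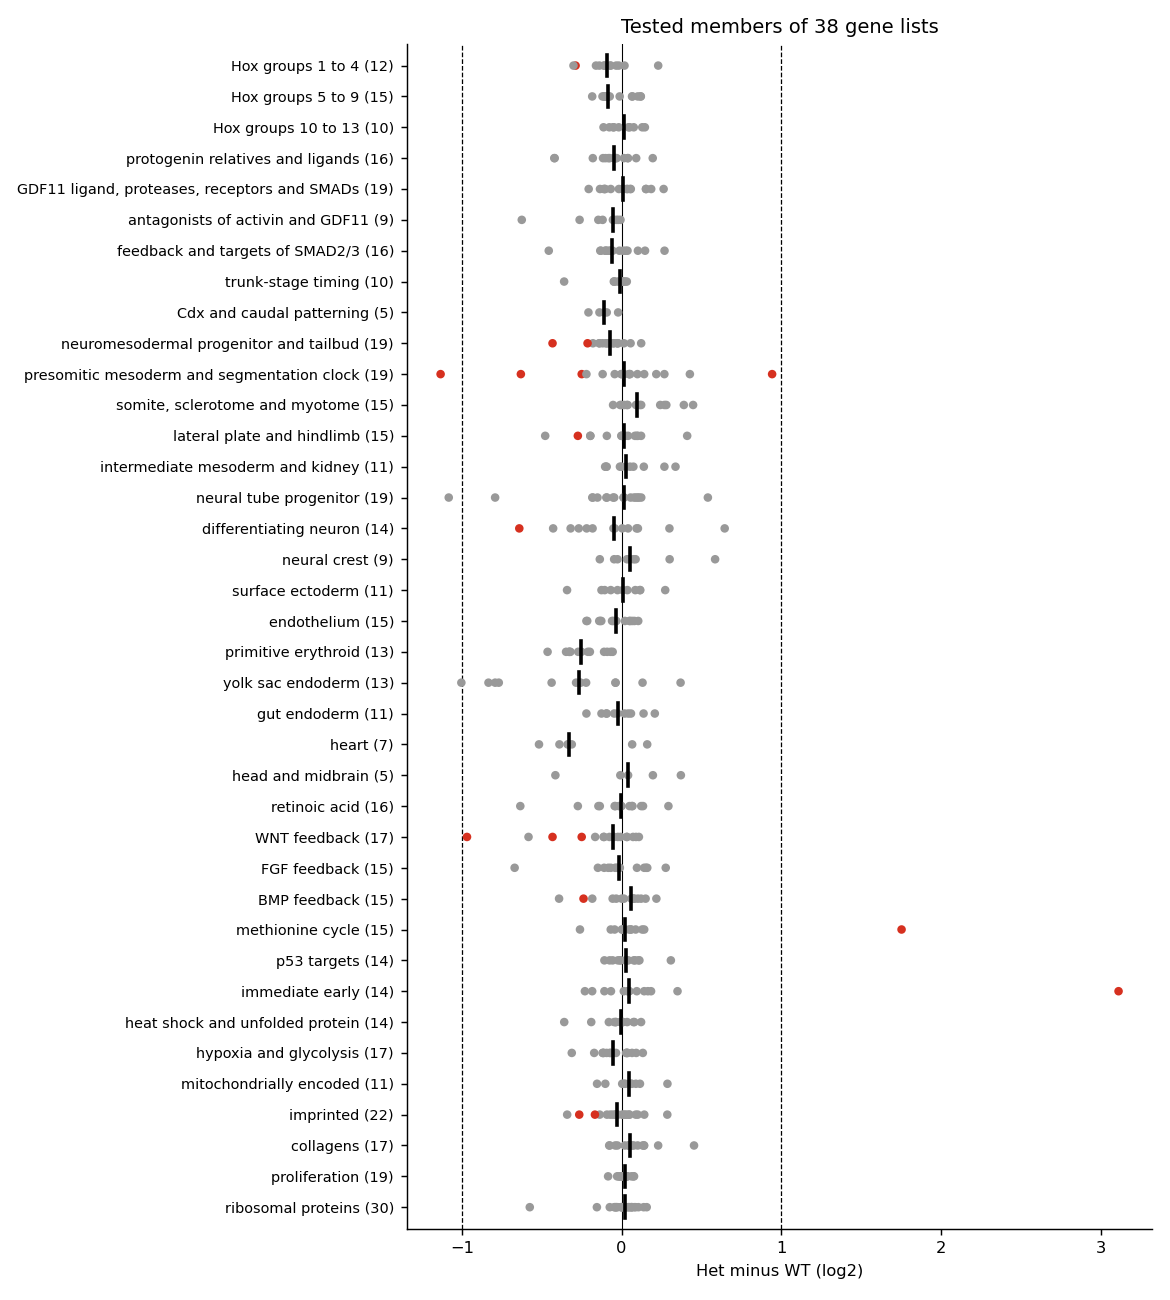
Het minus WT log2 differences of the tested members of 38 gene lists (points, in red where the unadjusted p in edgeR is below 0.05), with the list median as a black bar, the number of tested members in parentheses and dashed lines at 2-fold. Medians stay within 0.1 of 0 for most lists, and the red points farthest to the right are Mat2a in the methionine cycle and Fos in the immediate early genes.

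Whole profiles were compared by the root mean square difference in log2(CPM + 1) over the 11082 genes at 5 CPM or more. The mean distance between a Het and a WT library was 0.200, and that between libraries of the same genotype was 0.212. The difference of -0.012 had a p of 1 in an exact two-sided permutation test over the 10 possible assignments of 5 libraries, which cannot go below 0.2. The closest pair of all was WT 1-2 and Het 1-1 at 0.153, and the next was WT 2-1 and Het 2-5 at 0.166. Both of these pairs cross genotypes within a column set and share their Xist class. The WT libraries were 0.229 apart. Of the 6 pairs of Het with WT, 3 cross column sets, as do 3 of the 4 pairs of the same genotype, and the permutation test does not account for this. Among pairs that cross sets the mean was 0.222 for Het with WT and 0.218 for the same genotype, so the sign turned. Within a set it was 0.177 over 3 pairs of Het with WT, against 0.192 for the single pair of the same genotype. Pairs of different Xist class gave 0.232 and 0.221, and pairs of the same class 0.168 and 0.183.

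**Figure D5:**
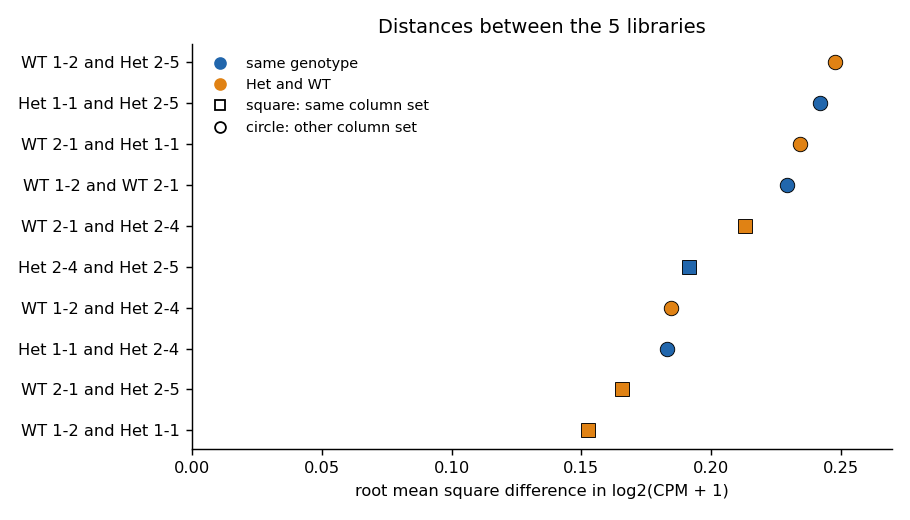
Root mean square difference in log2(CPM + 1) for each of the 10 pairs of libraries, blue for the same genotype and orange for Het with WT, squares for the same column set and circles for different sets. The pairs of smallest distance, at 0.153 and 0.166, join a WT and a Het library of the same column set.

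When Het minus WT was computed within each column set, the sign was the same in both sets for 5986 of 11082 genes (54.0%). Genes beyond 1.5-fold with the same sign in both sets numbered 4, namely Mat2a, Ripply2, Rgs5 and the pseudogene Rpl30-ps10, of which the last 2 were named after their values were seen. Rgs5, a regulator of G protein signalling in pericytes, was at 22.8 and 25.3 CPM in WT and 12.1, 19.4 and 12.7 CPM in Het, and in KO it ran from 11.7 to 25.1 CPM. Genotype and single library cannot be told apart in set 1, which holds 1 library of each genotype. With only the 5 libraries fitted and the column set as a term, a setting chosen after the data were seen, edgeR called 17 genes, among them Mat2a, Prtg, Vegfb, Gnas, Rac1 and Msgn1. In that fit 1047 of 15816 tested genes had an unadjusted p below 0.05.

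Large differences also came from genes with near-identical copies, whose counts are uncertain. Rps2, a ribosomal protein gene, was at 2385 and 2630 CPM in WT and 2421, 1299 and 1330 CPM in Het, while its pseudogene Rps2-ps13 was at 147 and 159 CPM in WT and 147, 1229 and 1318 CPM in Het. The sum of both was 2532 and 2789 CPM in WT and 2568, 2528 and 2648 CPM in Het, so it was nearly even. Atp6v0c, a proton pump subunit gene, and Atp6v0c-ps2 behaved alike, with the pseudogene at 32.4 and 34.5 CPM in Het 2-4 and Het 2-5 and 0.12 to 0.58 CPM in the other 3 libraries. KO 2-3 had the same high pseudogene counts, at 1325 and 34.95 CPM.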

How the data were processed

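The authors deposited raw read counts, 1 whole number for each gene in each library, in a single table on GRCm38 coordinates. It also holds 8 FPKM columns, which were not used here. Tools named in the submitters' processing notes, without roles, are HTSeq 0.6.1, HISAT2 2.0.1 and cutadapt 1.9.1. Whether counting used strand is not stated, so overlapping genes cannot be separated. The numbers in the column names do not occur in the labels, and a column was therefore given a genotype but no sample.

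All 8 libraries were fitted together with 1 mean per genotype in edgeR 4.0.16 (R 4.3.3), with TMM scaling, the default filter on low counts and the quasi-likelihood test, two-sided, and the contrast Het minus WT was read from it. Log2 estimates use no prior count, and 95% intervals use the quasi-likelihood spread and its pooled degrees of freedom (11), never below counting error. The script was tested on counts drawn with known changes. Alternatives were DESeq2 1.42.0 and its size factors, limma voom 3.58.1, other filters, the column set or the Y-linked level in the fit, the 5 libraries alone, and leaving out each library. Total counts were 16874860 to 17511964, and intervals cover the spread between libraries of unknown origin, without telling PCR copies from molecules. Pairs of the 5 libraries varied 3.50 to 11.0 times as much as counting alone, so none were merged.

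Named genes were Prtg, the 10 smallest p per direction at 5 CPM or more, genes called by DESeq2 or against the midpoint, tail Hox genes, genes that earlier analysis found changed in KO, 1 to 2 genes of smallest p per list, and the tested genes beside Prtg. Members and lists were chosen with earlier results of these data known.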

Additional observations from a re-analysis of the deposited data

How the results depend on the processing

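The count of genes that differ between Het and WT was 0 in edgeR with TMM or DESeq2 size factors, a filter at a mean of 10 CPM, limma voom, the column set or the Y-linked level in the fit, and the 5 libraries alone. It was 11 with no filter on low counts, 2 with DESeq2 and 17 with the 5 libraries and the column set as a term, and 0 to 1 with a library left out. The share of genes with an interval inside 2-fold was 45.7% with no filter and 67.9% to 81.6% with a library left out. Against the midpoint of WT and KO, 70 genes were called with no filter, 12 with DESeq2, 0 with the 10 CPM filter, the column set or the Y-linked level, and 0 to 9 with a library left out, 9 being the value without KO 1-3. Prtg passed the threshold with no filter (-0.45), with DESeq2 (-0.45) and with the 5 libraries and the column set (-0.47), and ran from -0.58 to -0.30 with a library left out. The tail Hox median ran from -0.18 to 0.33, the low value without WT 2-1 and the high value without WT 1-2. The distance comparison kept its sign with other level minimums, with Spearman distances and with a library left out, from -0.036 to -0.001 in the last case, but turned to 0.222 for Het with WT against 0.218 for the same genotype among pairs that cross column sets. The cause of these shifts was not tested.

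Of 74 other named genes, 56 kept their sign in each alternative run. With the 5 libraries and the column set, Hoxa13 changed sign to 0.041, Hoxc11 to 0.063 and Hoxd11 to 0.15. The column set alone gave 0.0030 for Hoxc11 and 0.053 for Hoxd11, and voom gave 0.047 for Hoxd11. With a library left out, the values ran from -0.28 to 0.028 for Crabp1, -0.13 to 0.038 for Fst, -0.17 to 0.51 for Hoxa11, -0.31 to 0.27 for Hoxa13, -0.10 to 0.084 for Hoxb9, -0.17 to 0.025 for Hoxc10, -0.37 to 0.35 for Hoxc11, -0.40 to 0.25 for Hoxc13, -0.17 to 0.31 for Hoxd10, -0.46 to 0.61 for Hoxd11, -0.46 to 0.95 for Hoxd12, -0.18 to 0.57 for Hoxd13, -0.63 to 0.072 for Klf1, -0.044 to 0.96 for Lhx2, -0.21 to 0.14 for Nr6a1, -0.083 to 0.39 for Pgk1, -0.061 to 0.089 for Rnf213 and -0.43 to 0.025 for Sox17. No value could be had for Gm27204 without WT 2-1, which leaves WT at 0.

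No paired analysis was possible because the columns carry no replicate number of the labels. The first number of the column name, whose meaning is not stated, was instead used as a term, as given above. Depth limits genes under 1 CPM, of which 2.09% were bounded within 2-fold. With 2 WT libraries, leaving 1 out assumes that the lone library varies like the other genotypes.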

Other observations

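Genes of cholesterol synthesis and its feedback control were listed after their values had been seen, so no test is given. Of 19 such genes, 18 had a Het minus WT estimate below 0, with a median of -0.28 on the log2 scale, 12 had an interval inside 2-fold, and 0 had an unadjusted p below 0.05 in edgeR. Their summed level was 2083 and 2265 CPM in WT and 1702, 1744 and 2001 CPM in Het, without overlap. In KO it was 4228 CPM in KO 1-3, 2382 in KO 2-2 and 1882 in KO 2-3, so the KO libraries spanned both other genotypes. The intervals and p-values of this list come from the fit of all 8 libraries. Its shared estimate of spread includes KO 1-3. Insig1, which holds the sterol-sensing machinery in the endoplasmic reticulum, was at 90.3 and 97.0 CPM in WT and 64.4, 67.5 and 76.9 CPM in Het. The fit of the 5 libraries with the column set as a term, chosen after the data were seen, called 17 of 15816 tested genes. Among them were 2 of the 19, namely Insig1 and Fdft1, the gene of squalene synthase. The list and the fit both followed from these data, so these calls are a description and no support for the list.

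H19, an imprinted non-coding RNA, was at 6622 and 7245 CPM in WT and 6095, 6283 and 6546 CPM in Het, and at 5850 to 6645 CPM in KO. Its Het minus WT difference was -0.14 (-0.28 to 0.006). Pcdh8, a protocadherin gene of the presomitic mesoderm, was at 33.4 and 19.9 CPM in WT and 46.2, 33.2 and 28.7 CPM in Het, with overlapping groups and a difference of 0.43 (-0.05 to 0.91). Both were called in that same fit, at an edgeR adjusted p of 0.00308 for H19 and 0.0300 for Pcdh8, and were named after their values were seen.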
